A study of Mus musculus with 16 samples.

Results

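The 10 genes described here encode proteins that bind the very low density lipoprotein receptor (Vldlr), work with those that do, or carry its signal. They are the apolipoproteins Apoe, Apoc1, Apoa1 and Apob, the lipase gene Lpl, the secreted glycoprotein gene Reln, the adaptor gene Dab1, the matrix protein gene Thbs1, the protease gene Plau and the scavenger receptor gene Cd36. They were chosen by name, as probe sets annotated with 1 of these symbols alone, and make up 10 of the 19938 genes measured on the arrays in this way. Each had a single such probe set.

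Gene expression was measured in whole lung of mice on 16 Affymetrix whole-transcript arrays, 4 in each of 4 groups. The groups were Vldlr-/- mice (KO) given house dust mite extract (HDM), Vldlr-/- mice given saline, wild-type B6129SF2/J mice (WT) given HDM, and wild-type mice given saline. HDM is an allergen extract that provokes asthma-like airway inflammation in mice, and it was instilled into the nose at 25 µg in 10 µl on 5 days a week for 6 weeks. The labels name a strain for the WT mice only, they call the arrays of a group biological replicates without giving the animals behind each RNA sample, and p-values therefore measure the spread between these samples.

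Vldlr belongs to the family of the LDL receptor. It takes up triglyceride-rich particles that carry apolipoprotein E, with help from lipoprotein lipase, and it clears complexes of urokinase with its inhibitor. In the developing brain it also passes the reelin signal to the adaptor Dab1, and thrombospondin-1 is a further ligand. In the lung, apolipoprotein E is made by macrophages among other cells.

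All values are on the log2 scale, so a difference of 1 is a doubling of signal, and levels of different genes cannot be ranked because each probe set has its own brightness. A gene passed a comparison at an adjusted p under 0.05 from limma, a linear model fitted over all genes, with Benjamini-Hochberg adjustment over the 19938 genes. "Rose" and "fell" are used only of genes that passed. Vldlr itself lay between 9.40 and 9.91 on the 8 KO arrays and between 10.27 and 10.92 on the 8 WT arrays, so the genotypes did not overlap, and a signal remained on the KO arrays. The difference between KO and WT was -0.93 under HDM (SE 0.12, adjusted p = 0.000277) and -0.76 under saline (SE 0.12, adjusted p = 0.00697). The sources used here do not say which part of the gene the probe set covers relative to the disruption. Array medians lay between 8.78 and 8.85. The mean level of 10 lung marker genes, among them those of surfactant proteins, was 12.13, 12.15, 12.21 and 12.47 on the KO HDM arrays and 12.34 to 12.56 on the other 12. KO HDM 1 to 3 thus lay below all other arrays. Of the 10 markers, 4 were lower in KO than in WT under HDM, where 11.7% of all genes passed in either direction. The part of this shift in the results of KO HDM was not tested. WT saline 2 and 3 had the highest mean levels of eosinophil markers among the saline arrays, 8.58 and 8.42 against 8.12 to 8.24 on the other 6, and the saline difference of Vldlr did not pass without both, while that under HDM passed in all 17 alternatives run. In whole tissue, a lower signal from fewer cells of a type and one from less RNA in each cell cannot be told apart.

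The promoter of Apoe is shown because Apoe is the defining ligand of the receptor and the only gene of the 10 that both passed a comparison and had an entry in the RefSeq promoter table, which held 6 of the 10. The stretch is the 250 bases before the annotated start in GRCm38.p6, chr7:19699189-19699438, minus strand, read 5′ to 3′ from RefSeq. Capitals mark the GC box core GGCGGG, chosen with the sequence in view.

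Apoe: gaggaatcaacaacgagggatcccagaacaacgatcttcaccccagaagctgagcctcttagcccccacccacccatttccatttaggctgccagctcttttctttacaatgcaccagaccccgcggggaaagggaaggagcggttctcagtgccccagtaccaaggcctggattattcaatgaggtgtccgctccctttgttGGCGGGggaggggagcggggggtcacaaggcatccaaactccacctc

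The GC box core matched once, beginning 47 bases before the start, and 32.5% of 32851 promoter windows of the same length hold it on either strand. The TATA box letters TATAAA had 0 matches on both strands here and occur in 12.4% of those windows. An E-box, with the letters CACGTG, had 0 matches and occurs in 6.02%. The nuclear receptor motif AGGTCA had 0 matches and occurs in 14.0%. Only the GC box core matched in this stretch, so no overlap between motifs was possible. A match of letters is not a binding site.

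The members that passed with HDM in KO were not those that passed in WT, and the difference between the 2 changes was itself passed by Thbs1 alone. In KO lungs 2 of 10 rose, Thbs1 and Plau, and 0 fell, where 8.84% of all genes passed and 4.96% passed as higher. In WT lungs 3 of 10 rose, Lpl, Apoc1 and Apoe, and 0 fell, where 17.6% of all genes passed and 7.86% passed as higher. Of the genes that passed in WT 44.7% were higher, and 56.3% when the arrays were shifted to the same median. The median change over the 10 genes was 0.08 in KO, against -0.03 over all genes, and 0.11 in WT, against -0.05 over all genes. Between the genotypes, 1 of 10 was higher in KO than in WT under HDM, Thbs1, where 11.7% of all genes passed and 5.84% passed as higher. Under saline 0 of 10 passed in limma's test, where 0.231% of all genes did, and 2 of 10 had an unadjusted p under 0.05, where 7.81% of all genes did. The test of the difference between the HDM change in KO and that in WT, the interaction, was passed by 1 of 10, Thbs1, where 0.802% of all genes passed and 0.356% passed as higher. With 10 genes these shares are descriptive. Counts of marker genes given below are to be read beside the same shares of all genes.

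**Figure D1:**
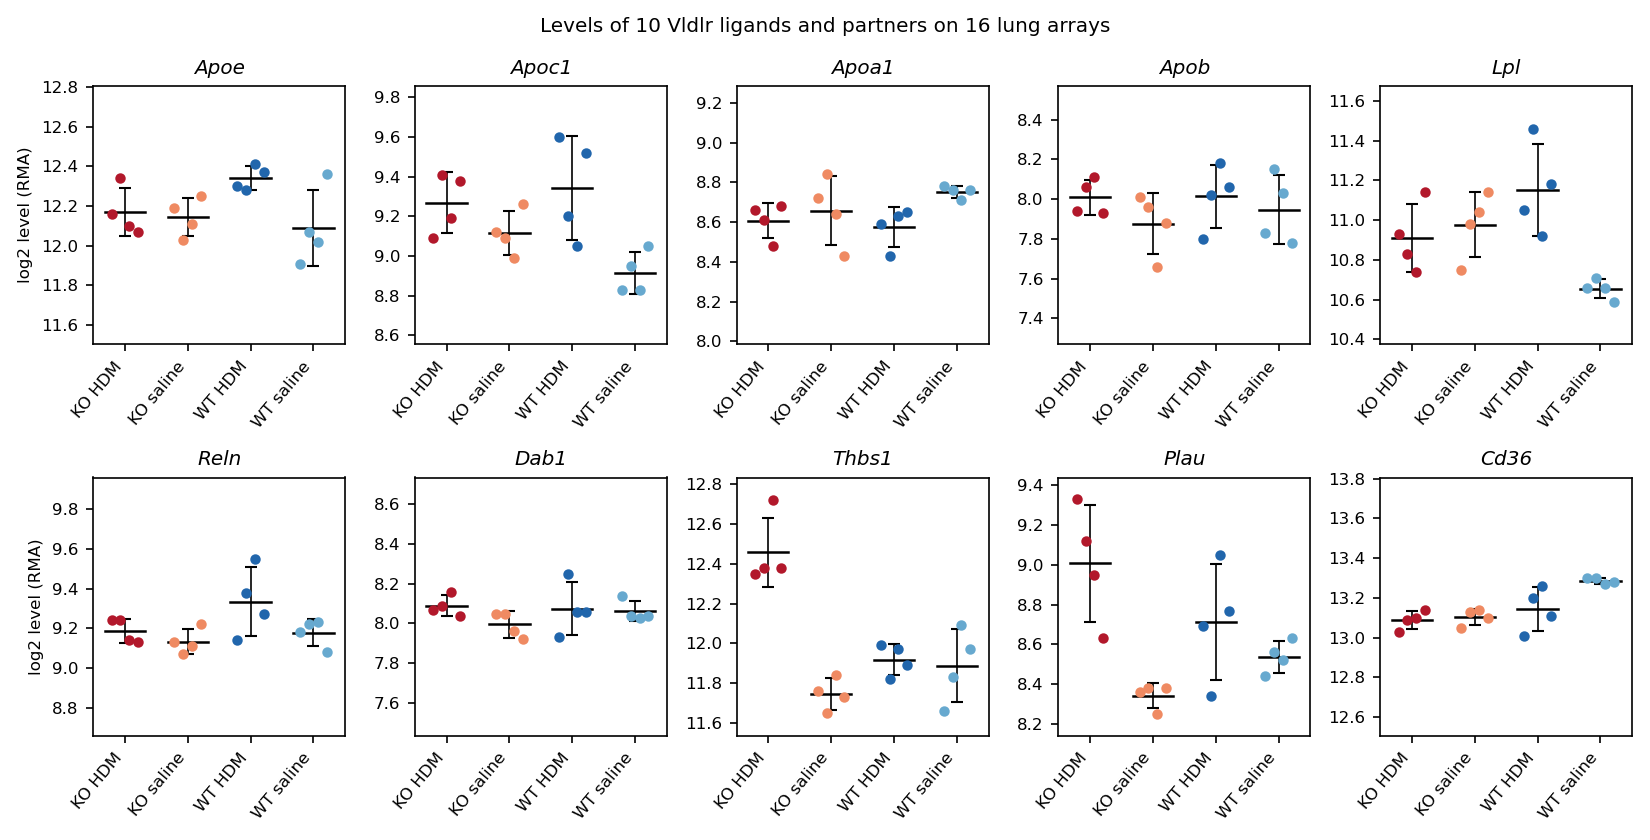
Levels of the 10 genes on each of the 16 arrays (log2, RMA), with points for arrays and bars for the group mean ± SD (n = 4 per group). Every panel spans the same log2 range around its gene, so the wide spread of Thbs1 and Plau (1.08 each from lowest to highest array) can be compared with the narrow one of Cd36 (0.29) and Dab1 (0.33).

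Apoe encodes the apolipoprotein by which Vldlr recognises lipoprotein particles. Its level was 12.16, 12.34, 12.10 and 12.07 on the KO HDM arrays and 12.19, 12.03, 12.11 and 12.25 on the KO saline arrays, and the groups overlapped. In WT it was 12.30, 12.28, 12.41 and 12.37 under HDM and 11.91, 12.07, 12.02 and 12.36 under saline. The WT HDM arrays lay close together and above 3 of the 4 WT saline arrays, while WT saline 4 reached their level. The difference of Apoe between HDM and saline was 0.02 in KO (95% interval -0.15 to 0.20, adjusted p = 0.897). In WT it rose 1.19-fold (log2 change 0.25, SE 0.08, 95% interval 0.07 to 0.43, adjusted p = 0.0488). The call in WT sat at the threshold: it was kept under 8 of 18 alternatives, with adjusted p-values between 0.0102 and 0.266, and ended without any 1 of WT HDM 1, 2, 3 and 4 and WT saline 1, 2 and 3. Without both WT saline 2 and 3 the change was 0.20 (adjusted p = 0.266). The changes in KO and WT differed by -0.23 (adjusted p = 0.372), so a difference between the genotypes was not shown.

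Apoc1 encodes a small apolipoprotein of the same particles that hinders their uptake by receptors, and it neighbours Apoe on the chromosome. Its level was 9.09, 9.41, 9.19 and 9.38 on the KO HDM arrays and 9.12, 9.09, 8.99 and 9.26 on the KO saline arrays. On the WT arrays it was 9.60, 9.20, 9.05 and 9.52 under HDM and 8.83, 8.95, 8.83 and 9.05 under saline. WT saline held the lowest levels and WT HDM 3 met WT saline 4 at 9.05, while the KO groups overlapped widely. Apoc1 differed by 0.15 between HDM and saline in KO (adjusted p = 0.44) and rose 1.34-fold in WT (log2 change 0.43, SE 0.11, 95% interval 0.20 to 0.65, adjusted p = 0.0143). The rise in WT passed under 16 of 18 alternatives, was 0.37 without WT HDM 4 (adjusted p = 0.0505), and was 0.40 without both WT saline 2 and 3 (adjusted p = 0.104). The changes in the 2 genotypes differed by -0.28 (adjusted p = 0.393).

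The genes around Apoe and Apoc1 did not all move with them. In the order of the reference annotation, Apoc4, Apoc1, Apoe, Tomm40, Nectin2, Bcam and Cblc follow one another. With HDM in WT, Nectin2, a cell adhesion molecule, rose by 0.34 (SE 0.07, adjusted p = 0.00548), whereas the apolipoprotein gene Apoc4 fell by 0.21 (adjusted p = 0.043) and Tomm40, a subunit of the mitochondrial import pore, fell by 0.19 (adjusted p = 0.0317). Bcam and Cblc did not pass. In KO none of these neighbours passed with HDM. The fall of Apoc4 ended under 13 of 17 alternatives, quantile normalization and a shift of the arrays to the same median among them, and without both WT saline 2 and 3 or any 1 of the WT arrays other than WT HDM 3. That of Tomm40 ended under 9 of 18, with the arrays shifted to the same median and without both WT saline 2 and 3 or any 1 of the WT arrays other than WT HDM 1. Nectin2 rose in all 18.

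Apoa1 encodes the main protein of high density lipoprotein and is made mostly by liver and gut. Its level was 8.66, 8.61, 8.48 and 8.68 on the KO HDM arrays and 8.72, 8.84, 8.64 and 8.43 on the KO saline arrays. In WT it was 8.59, 8.43, 8.63 and 8.65 under HDM and 8.78, 8.76, 8.71 and 8.76 under saline. Every WT HDM array lay below every WT saline array. The change was -0.05 in KO (adjusted p = 0.745) and -0.18 in WT (SE 0.08, adjusted p = 0.104), and neither passed. Its cluster neighbours Apoc3, Apoa4 and Apoa5 had changes of -0.11, -0.10 and -0.11 in KO and of -0.19, -0.16 and -0.19 in WT, and none passed. Apoa1 spanned 8.43 to 8.84 over all arrays, where array medians were 8.78 to 8.85. Whether the signals of Apoa1 and these neighbours stood above background was not tested.

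Apob encodes the structural protein of very low density lipoprotein. Its levels spanned 7.93 to 8.11 in KO HDM, 7.66 to 8.01 in KO saline, 7.80 to 8.18 in WT HDM and 7.78 to 8.15 in WT saline, so all groups overlapped. With HDM the change was 0.13 in KO (adjusted p = 0.434) and 0.07 in WT (adjusted p = 0.635). Liver marker genes such as that of albumin averaged 7.36 to 7.56 on all 16 arrays.

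Lpl encodes lipoprotein lipase, which releases fatty acids from triglyceride-rich particles and bridges them to Vldlr. Its level was 10.93, 10.83, 10.74 and 11.14 on the KO HDM arrays and 10.75, 10.98, 11.04 and 11.14 on the KO saline arrays. In WT it was 11.05, 11.46, 10.92 and 11.18 under HDM and 10.66, 10.71, 10.66 and 10.59 under saline. The WT saline arrays lay below all other 12 arrays, and the other groups overlapped one another. The difference of Lpl between HDM and saline was -0.07 in KO (95% interval -0.29 to 0.15, adjusted p = 0.738). It rose 1.41-fold in WT (log2 change 0.50, SE 0.11, 95% interval 0.27 to 0.72, adjusted p = 0.00556), and it passed under all 18 alternatives run, with changes between 0.40 and 0.58.

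The 2 changes of Lpl differed by -0.57 (SE 0.15, 95% interval -0.89 to -0.25), which did not pass over all genes (unadjusted p = 0.00146, adjusted p = 0.0824). It passed with array weights (-0.53, adjusted p = 0.0369), without KO HDM 4 (-0.65, adjusted p = 0.0197) and without WT HDM 3 (-0.65, adjusted p = 0.0347). Under saline Lpl was 0.33 higher in KO than in WT (SE 0.11), with no overlap, and did not pass (unadjusted p = 0.007, adjusted p = 0.331). Under HDM it was 0.24 lower in KO (log2 difference -0.24, adjusted p = 0.151), and without KO HDM 4 that difference was -0.32 (adjusted p = 0.0442). In the order of its group means, 10.91 in KO HDM and 10.98 in KO saline lay between 11.15 in WT HDM and 10.65 in WT saline, and the 1 gap without overlap was above WT saline.

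Macrophage, alveolar type 2 cell, fat and clock markers were read beside Apoe, Apoc1 and Lpl, which macrophages and fat cells express. The mean of 12 alveolar macrophage markers lay between 10.15 and 10.45 in KO HDM and 10.30 and 10.53 in KO saline, against 10.37 to 10.75 in WT HDM and 10.10 to 10.30 in WT saline. WT HDM was thus above WT saline without overlap, as Lpl was, and the KO groups overlapped. The same held for 10 alveolar type 2 markers, at 12.83 to 12.93 in WT HDM against 12.71 to 12.76 in WT saline. In KO HDM they lay at 12.6 to 12.81 and in KO saline at 12.77 to 12.86. It held too for 12 monocyte and interstitial macrophage markers, at 9.94 to 10.28 in WT HDM and 9.76 to 9.91 in WT saline. In KO HDM these lay at 9.94 to 10.52 and in KO saline at 9.82 to 10.01. Of the 12 alveolar macrophage markers 4 rose and 6 fell in KO, and 4 rose and 1 fell in WT, so that list did not move as one. Ctsk, a cathepsin gene on the alveolar macrophage list, rose by 1.55 in KO (adjusted p = 0.00582) and by 1.21 in WT (adjusted p = 0.0184, a call that ended without WT HDM 4, without both WT saline 2 and 3 and in a fit of the WT groups alone), and the keratin gene Krt79 fell by 0.96 in KO (adjusted p = 5.04e-05). The mean of 7 adipose markers was 8.53 to 8.73 in KO HDM, 8.72 to 9.04 in KO saline, 8.71 to 9.17 in WT HDM and 8.83 to 9 in WT saline. The adipose and alveolar macrophage lists share the gene Cidec, which fell by 0.74 in KO (adjusted p = 0.00164). The mean of 14 circadian clock genes overlapped between KO HDM (9.99 to 10.24) and KO saline (9.95 to 10.13), and was higher in WT HDM (10.22 to 10.61) than in WT saline (10.04 to 10.09). The part of macrophages, of alveolar type 2 cells, of fat and of the time of day in the changes of Apoe, Apoc1 and Lpl was not tested.

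**Figure D2:**
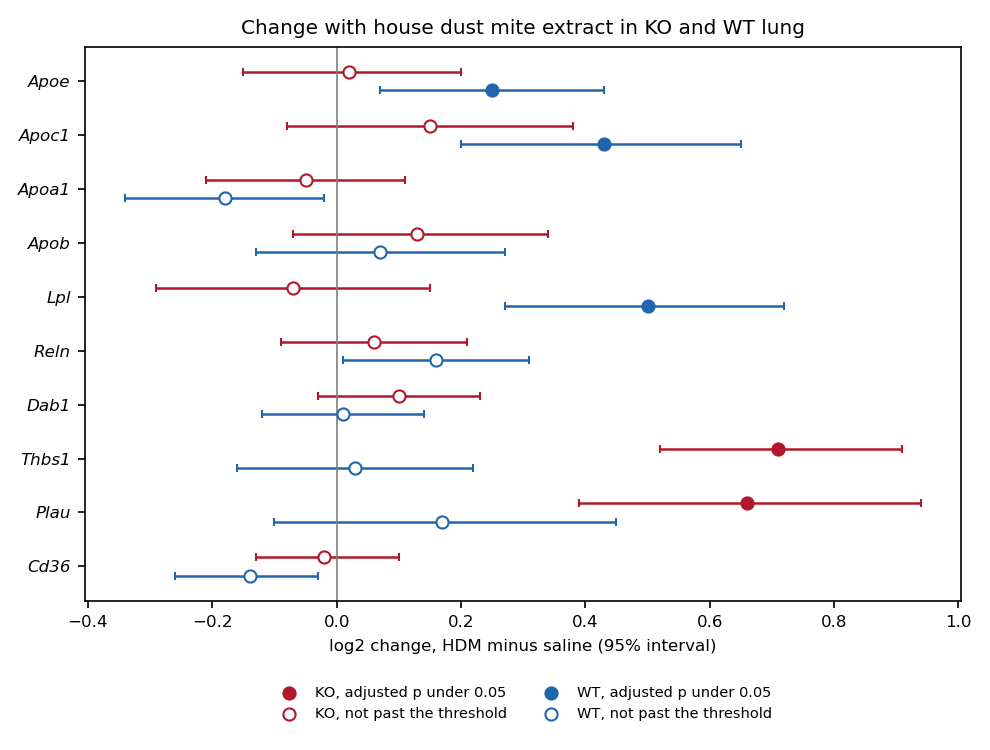
Log2 change with HDM (HDM minus saline) of each gene in KO (upper bar of each pair) and WT (lower bar), with 95% intervals from the fit on 16 arrays. Filled circles passed at an adjusted p under 0.05: Thbs1 (0.71) and Plau (0.66) in KO, and Lpl (0.50), Apoc1 (0.43) and Apoe (0.25) in WT.

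Reln encodes reelin, the extracellular ligand that Vldlr shares with its relative Lrp8, and Dab1 the adaptor that binds the receptor tail. Reln lay between 9.13 and 9.24 in KO HDM, 9.07 and 9.22 in KO saline, 9.14 and 9.55 in WT HDM and 9.08 and 9.23 in WT saline. Its difference between HDM and saline was 0.06 in KO (adjusted p = 0.68) and 0.16 in WT (adjusted p = 0.122), and without WT HDM 1 the change in WT was 0.23 (adjusted p = 0.0323). WT HDM 3, at 9.55, was the highest array, and all groups overlapped. Dab1 lay between 8.04 and 8.16 in KO HDM, 7.92 and 8.05 in KO saline, 7.93 and 8.25 in WT HDM and 8.03 and 8.14 in WT saline. Its changes were 0.10 in KO (adjusted p = 0.379) and 0.01 in WT (adjusted p = 0.912), so the axis of ligand and adaptor gave no call in either genotype.

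Thbs1 encodes thrombospondin-1, a matrix glycoprotein that platelets and other cells release, that activates latent TGF-beta and that binds Cd36 as well as Vldlr. Its level was 12.35, 12.38, 12.72 and 12.38 on the KO HDM arrays and 11.76, 11.65, 11.84 and 11.73 on the KO saline arrays. The WT levels were 11.99, 11.82, 11.97 and 11.89 under HDM and 11.66, 11.83, 12.09 and 11.97 under saline. All 4 KO HDM arrays lay above the other 12, and the WT groups overlapped. Thbs1 rose 1.64-fold with HDM in KO (log2 change 0.71, SE 0.09, 95% interval 0.52 to 0.91, adjusted p = 0.000126). In WT the change was 0.03 (95% interval -0.16 to 0.22, adjusted p = 0.843).

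Thbs1 was the 1 gene of the 10 to pass between genotypes. Under HDM it was 1.46-fold higher in KO than in WT (log2 difference 0.54, SE 0.09, 95% interval 0.35 to 0.73, adjusted p = 0.00228). Under saline it was 0.14 lower in KO (log2 difference -0.14, adjusted p = 0.815). The HDM change in KO exceeded that in WT by 0.68 (SE 0.13, 95% interval 0.41 to 0.96, adjusted p = 0.0232). The changes within KO and between genotypes under HDM passed in all 17 alternatives run for each. The interaction passed in 19 of 25, and ended without KO saline 2 (0.65, adjusted p = 0.0527), KO saline 4 (0.68, adjusted p = 0.0588), WT HDM 2 (0.65, adjusted p = 0.0512), WT HDM 4 (0.68, adjusted p = 0.0555), WT saline 3 (0.62, adjusted p = 0.0547), and both WT saline 2 and 3 (0.61, adjusted p = 0.126).

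Markers of cell types that may hold Thbs1 RNA were read beside it. The mean of 7 platelet and megakaryocyte markers was 8.94 to 9.14 in KO HDM and 9.15 to 9.40 in KO saline, against 8.96 to 9.33 in WT HDM and 9.33 to 9.66 in WT saline. Of these 7, 0 rose and 1 fell in each genotype. The mean of 8 smooth muscle markers was 10.67 to 10.99 in KO HDM and 10.52 to 10.71 in KO saline, and 10.70 to 10.85 in WT HDM and 10.52 to 10.81 in WT saline. In KO 3 of these 8 rose, the actin gene Acta2 by 0.43 (SE 0.08, adjusted p = 0.00308) among them, and in WT 1 rose and 1 fell. The mean of 12 monocyte and interstitial macrophage markers was 9.94 to 10.52 in KO HDM and 9.82 to 10.01 in KO saline, and 9.94 to 10.28 in WT HDM and 9.76 to 9.91 in WT saline. Eosinophil markers (6 genes) averaged 9.31 to 10.02 in KO HDM and 8.12 to 8.24 in KO saline, and 8.84 to 9.30 in WT HDM and 8.14 to 8.58 in WT saline. Mast cell markers (10 genes) averaged 8.80 to 9.54 in KO HDM and 7.80 to 7.94 in KO saline, and 7.98 to 8.90 in WT HDM and 7.86 to 8.47 in WT saline, with 6 of the 10 higher with HDM in KO and 1 in WT.

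The fibroblast list, 10 genes, moved in both directions. Its mean was 11.35 to 11.67 in KO HDM and 11.46 to 11.61 in KO saline, and 11.49 to 11.63 in WT HDM and 11.51 to 11.70 in WT saline. In KO 3 of the 10 rose with HDM and 2 fell, and in WT 0 rose and 1 fell. Under HDM 3 were higher and 3 lower in KO than in WT. The collagen gene Col1a1 rose by 0.27 in KO (adjusted p = 0.00655) and was 0.43 higher in KO than in WT under HDM (adjusted p = 0.000585), and Col3a1 rose by 0.33 (adjusted p = 0.0035) and was 0.45 higher (adjusted p = 0.000661). Dcn, the gene of the matrix proteoglycan decorin, fell by 0.51 in KO (adjusted p = 0.000915) with a difference of -0.53 between KO and WT under HDM (adjusted p = 0.00149). These calls of Col1a1, Col3a1 and Dcn held in all 17 alternatives run for each. The HDM change of Col1a1 in KO exceeded that in WT by 0.42 (adjusted p = 0.0253), a call that ended under 9 of 25 alternatives, without KO HDM 3, KO saline 2, 3 or 4, WT HDM 2 or 4, WT saline 2 or 3, or both WT saline 2 and 3. Col3a1 passed the interaction in the same direction (0.43, adjusted p = 0.0353) and Dcn in the opposite one (-0.56, adjusted p = 0.0369). These calls ended under 13 and 14 of 25 alternatives. The part of platelets, smooth muscle cells, macrophages, eosinophils, mast cells and fibroblasts in the rise of Thbs1 was not tested.

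Plau encodes urokinase, the plasminogen activator whose complexes with its inhibitor are taken up through Vldlr. Its level was 9.33, 9.12, 8.95 and 8.63 on the KO HDM arrays and 8.36, 8.38, 8.25 and 8.38 on the KO saline arrays. In WT it was 8.69, 8.34, 9.05 and 8.77 under HDM and 8.44, 8.56, 8.52 and 8.63 under saline. The HDM arrays of both genotypes spread widely, the KO groups did not overlap, and the KO saline arrays were below all WT saline arrays. Plau rose 1.59-fold with HDM in KO (log2 change 0.66, SE 0.13, 95% interval 0.39 to 0.94, adjusted p = 0.004), in all 16 alternatives that measured it. In WT the change was 0.17 (95% interval -0.10 to 0.45, adjusted p = 0.35).

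The 2 changes of Plau differed by 0.49 (SE 0.19), which did not pass (adjusted p = 0.205), but did without KO HDM 4 (0.62, adjusted p = 0.0396). That array was the lowest of its group in Plau and also in the mean of the monocyte and interstitial macrophage markers, at 9.94, and the highest in that of the lung markers, at 12.47. The part of cell composition in the levels of Plau was not tested. Under HDM Plau was 0.30 higher in KO than in WT (adjusted p = 0.156), and the difference was 0.42 without KO HDM 4 (adjusted p = 0.0214) and 0.41 without WT HDM 3 (adjusted p = 0.0423). Under saline the difference between KO and WT was -0.19 (adjusted p = 0.827).

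Cd36 encodes a scavenger receptor and fatty acid transporter that also binds thrombospondin-1, and it is strongly expressed in capillary endothelium and macrophages. Its level was 13.03, 13.09, 13.10 and 13.14 on the KO HDM arrays and 13.05, 13.13, 13.14 and 13.10 on the KO saline arrays. The WT levels were 13.01, 13.20, 13.26 and 13.11 under HDM and 13.30, 13.30, 13.27 and 13.28 under saline. The 4 WT saline arrays were nearly equal and above all other 12. With HDM the difference of Cd36 was -0.02 in KO (adjusted p = 0.872) and -0.14 in WT (SE 0.05, adjusted p = 0.0762). That in WT passed without WT HDM 3 (-0.18, adjusted p = 0.0368). Under saline the difference between KO and WT was -0.18 (SE 0.05, unadjusted p = 0.00385, adjusted p = 0.249). Blood endothelium markers (12 genes) averaged 11.77 to 12.22 in KO HDM, 11.99 to 12.12 in KO saline, 12 to 12.19 in WT HDM and 12.12 to 12.24 in WT saline, so both saline groups met at 12.12. The mean of 8 cardiac muscle markers was 9.21 to 9.69 in KO HDM and 9.55 to 9.87 in KO saline, against 9.69 to 10.12 in WT HDM and 9.95 to 10.30 in WT saline, so the saline groups did not overlap, as for Cd36. Of these 8, 5 were lower in KO than in WT under HDM and 0 passed under saline. Alveolar macrophage markers went the other way under saline, at 10.30 to 10.53 in KO and 10.10 to 10.30 in WT. So did alveolar type 2 markers, at 12.77 to 12.86 in KO and 12.71 to 12.76 in WT. Monocyte and interstitial macrophage markers overlapped, at 9.82 to 10.01 in KO saline and 9.76 to 9.91 in WT saline. The part of endothelium, of macrophages, of alveolar type 2 cells and of heart tissue in the level of Cd36 was not tested.

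**Figure D3:**
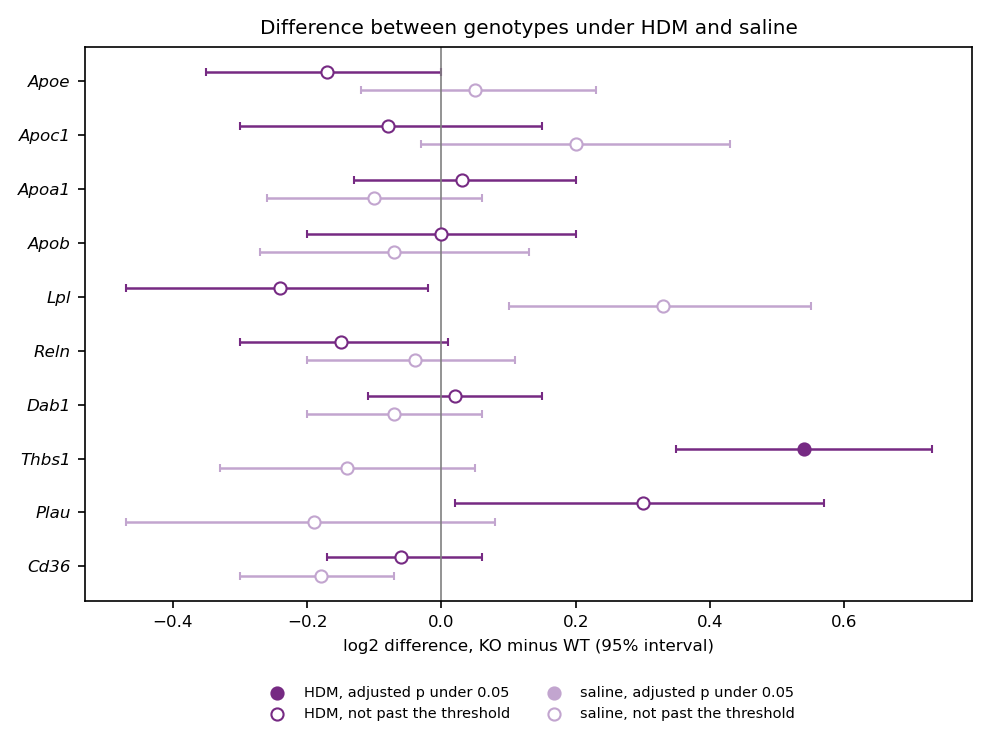
Log2 difference between genotypes (KO minus WT) of each gene under HDM (upper bar of each pair) and saline (lower bar), with 95% intervals from the same fit. Thbs1 under HDM (0.54) is the single filled circle, and Lpl lies on opposite sides of 0 under HDM (-0.24) and saline (0.33), neither of which passed.

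The order of the group means placed KO HDM first for Thbs1 (12.46 ± 0.18, against 11.92 ± 0.08 in WT HDM, 11.89 ± 0.19 in WT saline and 11.75 ± 0.08 in KO saline, SD, n = 4 each), with overlap between all neighbours below the top. Plau had the same group on top and the same at the bottom, with means of 9.01 ± 0.29 in KO HDM, 8.71 ± 0.29 in WT HDM, 8.54 ± 0.08 in WT saline and 8.34 ± 0.07 in KO saline, and overlap between neighbours except the last pair. For Apoe and Apoc1 WT HDM came first and WT saline last, at 12.34 ± 0.06 and 12.09 ± 0.19 for Apoe and 9.34 ± 0.26 and 8.92 ± 0.11 for Apoc1, with both KO groups between and overlap at every step. From the lowest, Cd36 averaged 13.09 ± 0.04 in KO HDM, 13.11 ± 0.04 in KO saline and 13.15 ± 0.11 in WT HDM, which overlapped, and 13.29 ± 0.01 in WT saline, which lay apart. For Apoa1, Apob, Reln and Dab1 all neighbours in the order overlapped.

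Groups without overlap give a coarser view that needs no model. With HDM, 2 of 10 genes had no overlap in KO (Thbs1 and Plau, both higher), where 14% of all genes did. In WT 3 of 10 did (Lpl higher, Apoa1 and Cd36 lower), where 23.5% of all genes did. Between KO and WT, 1 of 10 did under HDM (Thbs1 higher), where 10.8% of all genes did, and 3 of 10 under saline (Lpl higher, Plau and Cd36 lower), where 6.54% of all genes did. Apoe and Apoc1, which passed in WT, overlapped between treatments, each through WT saline 4.

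Genes whose levels ran most like each member over the 16 arrays were taken from 18332 named genes, by Pearson's r as a description, with r of the deviations from the group means beside it. For Thbs1 these were the lectin gene Cd209e (0.93 and 0.53) and the collagen-matrix genes Col6a2 (0.93 and 0.62) and Fmod (0.93 and 0.71), so much of the likeness lay in the group means. For Plau they were Fnip2 (0.94 and 0.89), Cln8 (0.94 and 0.86) and Cmtm3 (0.93 and 0.84), which followed it within groups too. Lpl was nearest to Phf3 (0.89 and 0.85), Rbm27 (0.89 and 0.83) and Rap1gap (0.88 and 0.74). Apoe was nearest to Lrmda (0.84 and 0.85), Ctso (0.84 and 0.77) and Ankle2 (0.83 and 0.74), Apoc1 to Cisd2 (0.85 and 0.66), and Cd36 to the cadherin gene Cdh11 (0.89 and 0.76). Apoa1 stood with Mog (0.92 and 0.93), a myelin gene, and the receptor genes Olfr524 (0.92 and 0.91) and Vmn1r50 (0.92 and 0.90), genes known from brain and from olfactory and vomeronasal tissue. Reln was nearest to Iars2 at 0.84, Apob to Olfr891 at 0.79 and Dab1 to Opa1 at 0.76. The arrays share groups and normalization, and these are the highest of many values.

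The wider pathways of these genes were read from 7 lists, of which 118 of 131 genes were measured. Over all genes 8.84% passed with HDM in KO and 4.96% passed as higher, and in WT 17.6% and 7.86%. Between KO and WT under HDM 11.7% passed and 5.84% passed as higher. The count of each list is to be read beside these shares, and with so few genes is descriptive. Of 13 other apolipoproteins, 1 rose and 1 fell with HDM in KO, where 8.84% of all genes passed, and 1 rose and 3 fell in WT, where 17.6% did. Their median change was -0.05 in KO and -0.14 in WT, against -0.03 and -0.05 over all genes. Clu, the chaperone apolipoprotein J, fell by 0.36 in KO (adjusted p = 0.00521) and by 0.44 in WT (adjusted p = 0.00143). Saa3, an acute phase apolipoprotein made by macrophages, rose by 1.18 in KO (SE 0.35, adjusted p = 0.0435) with a difference of 0.18 in WT (adjusted p = 0.733), and the rise ended under 7 of 17 alternatives, among them without KO HDM 2 or 3 or any 1 of the KO saline arrays. Saa2, its relative, fell by 0.36 in WT (adjusted p = 0.0073). Apod rose by 0.49 in WT (SE 0.15, adjusted p = 0.0376), a call that ended under 7 of 18 alternatives. In KO the difference of Apod was -0.28 (adjusted p = 0.3), and its interaction did not pass (-0.77, adjusted p = 0.0997). Under HDM 0 of the 13 passed between KO and WT.

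Of 17 genes of lipases and triglyceride handling, 2 rose and 0 fell with HDM in KO, and 2 rose and 2 fell in WT. Lipa, the lysosomal acid lipase, rose by 0.64 in KO (adjusted p = 0.0101). Mgll, the monoglyceride lipase, differed by 0.29 in KO (adjusted p = 0.101) and rose by 0.85 in WT (SE 0.11, adjusted p = 0.000161). The lipid droplet gene Plin2 rose by 0.45 in WT (adjusted p = 0.00658). Under HDM 2 of the 17 were lower in KO than in WT, Mgll by a log2 difference of -0.56 (adjusted p = 0.00468) and the fat cell gene Plin1 by -0.39 (adjusted p = 0.0126), and 0 were higher. The call of Plin1 ended in a fit of the HDM groups alone. As for Lpl, the interaction of Mgll did not pass (-0.56, adjusted p = 0.0889).

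Of 18 genes of fatty acid uptake, 7 rose and 2 fell with HDM in KO and 9 rose and 0 fell in WT, with median changes of 0.15 and 0.19. Olr1, a receptor for oxidised LDL that is also among the alveolar macrophage markers, rose by 1.16 in KO (adjusted p = 0.00811) and by 1.26 in WT (adjusted p = 0.00412). Msr1, the macrophage scavenger receptor, rose by 0.91 in KO (adjusted p = 0.0224) and 0.80 in WT (adjusted p = 0.0294), and each rise ended under 7 alternatives, robust estimation with a variance trend in both, in KO without KO HDM 1, 2 or 3 or KO saline 1, 2 or 4, and in WT without WT HDM 3 or 4, WT saline 2, 3 or 4, or both WT saline 2 and 3. Fabp1, a fatty acid binding protein that is also an alveolar macrophage marker, fell by 1.13 in KO (SE 0.15, adjusted p = 0.000218), and the fatty acid transporter gene Slc27a2 fell by 0.70 (adjusted p = 0.004). The Fabp1 means were 6.36 in KO HDM and 7.49 in KO saline, where array medians were 8.78 to 8.85. Whether that signal stood above background was not tested. Under HDM Pparg, the nuclear receptor that drives fat cell and alveolar macrophage programmes, was lower in KO than in WT (-0.40, adjusted p = 0.0196), a call that ended without WT HDM 4 and in a fit of the HDM groups alone. Of the 18, 1 was higher in KO than in WT under HDM and 2 were lower, Pparg included.

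Of 15 genes of the LDL receptor family and its processing, 2 rose with HDM in KO and 4 in WT, and 0 fell in either. Lrp12 rose by 0.52 in KO (adjusted p = 0.0412) and by 0.69 in WT (adjusted p = 0.00699), and the rise in KO ended under 9 of 17 alternatives, quantile normalization and the omission of any 1 KO array other than KO HDM 4 among them. Lrp10 rose by 0.33 in WT (adjusted p = 0.0124), a call that ended without both WT saline 2 and 3. Under HDM 1 of the 15 was higher in KO than in WT and 1 was lower. Of 20 reelin signalling genes, 1 rose in KO and 0 fell, and in WT 1 rose and 2 fell. Fyn, the kinase that phosphorylates Dab1, rose by 0.41 in KO (SE 0.07, adjusted p = 0.00157) with a difference of 0.03 in WT (adjusted p = 0.777). Under HDM 3 of the 20 were higher in KO than in WT and 0 lower, Fyn by 0.27 (adjusted p = 0.0211), a call that ended without KO HDM 1, KO HDM 3 or WT HDM 2 and in a fit of the HDM groups alone.

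Around Plau, 3 of 17 genes of plasminogen activation rose with HDM in KO and 1 fell, and in WT 2 rose and 3 fell. Serpinb2, an inhibitor of urokinase, rose by 0.95 in KO (SE 0.16, adjusted p = 0.00171) and by 0.58 in WT (adjusted p = 0.026), and the call in WT ended without WT HDM 3 or 4, WT saline 1 or 2, or both WT saline 2 and 3. Tfpi2, a protease inhibitor of the matrix, rose by 0.71 in KO (SE 0.07, adjusted p = 1.57e-05), differed by -0.14 in WT (adjusted p = 0.177) and was higher in KO than in WT under HDM by 0.69 (adjusted p = 8.41e-05). It was the 1 gene of the 7 lists to pass the interaction, at 0.85 (SE 0.10, adjusted p = 0.00371), and kept that call in all 24 alternatives run for it. Of the 17, 1 was higher and 1 lower in KO than in WT under HDM. The protease trap gene A2m fell by 0.54 in WT (adjusted p = 0.0053). Tfpi2 and Thbs1 thus shared a rise with HDM in KO and a higher level in KO than in WT under HDM.

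Around Thbs1, 3 of 20 genes of thrombospondins and their partners rose with HDM in KO and 1 fell, and in WT 1 rose and 3 fell. The family did not move together: Thbs4 rose by 0.48 in KO (adjusted p = 0.0217) and Thbs3 fell by 0.43 (adjusted p = 0.00461). The call of Thbs4 ended without KO HDM 1, KO HDM 3, KO saline 3 or KO saline 4. Ltbp2, a binding protein of the elastic fibre matrix, rose by 0.38 in KO (adjusted p = 0.0109), and the integrin gene Itgb1 fell by 0.31 in WT (adjusted p = 0.00794). Under HDM 3 of the 20 were higher in KO than in WT and 0 lower, where 11.7% of all genes passed and 5.84% passed as higher. The median difference was 0.13 over the list and 0.02 over all genes. Itgb3, an integrin subunit of vascular cells and platelets that binds thrombospondin-1, was 0.32 higher (SE 0.07, adjusted p = 0.00713) in KO than in WT. Under saline 0 of the 118 list genes passed between KO and WT, where 0.231% of all genes did.

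**Figure D4:**
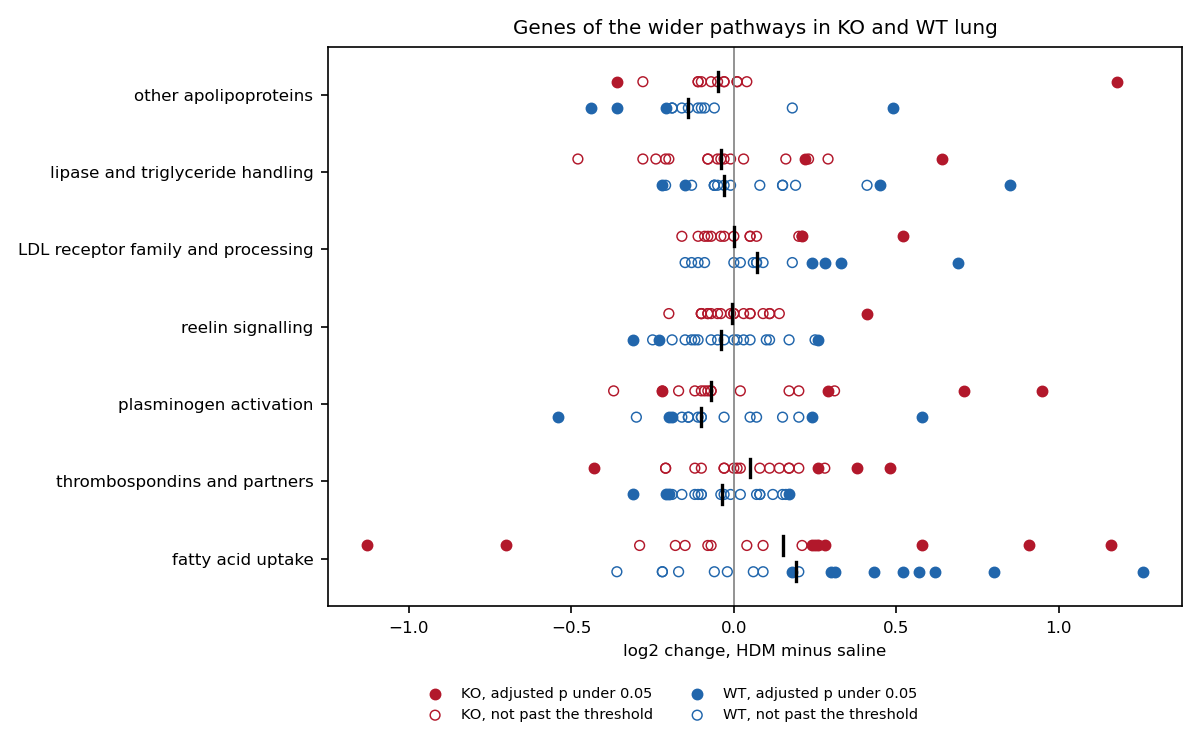
Log2 change with HDM of every measured gene on the 7 pathway lists, in KO (upper row of each list) and WT (lower row), with filled circles for genes that passed and a black bar for the list's median. Most genes lie near 0, and the widest spread is in fatty acid uptake, where Olr1 reached 1.16 in KO and 1.26 in WT and Fabp1 was at -1.13 in KO.

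**Figure D5:**
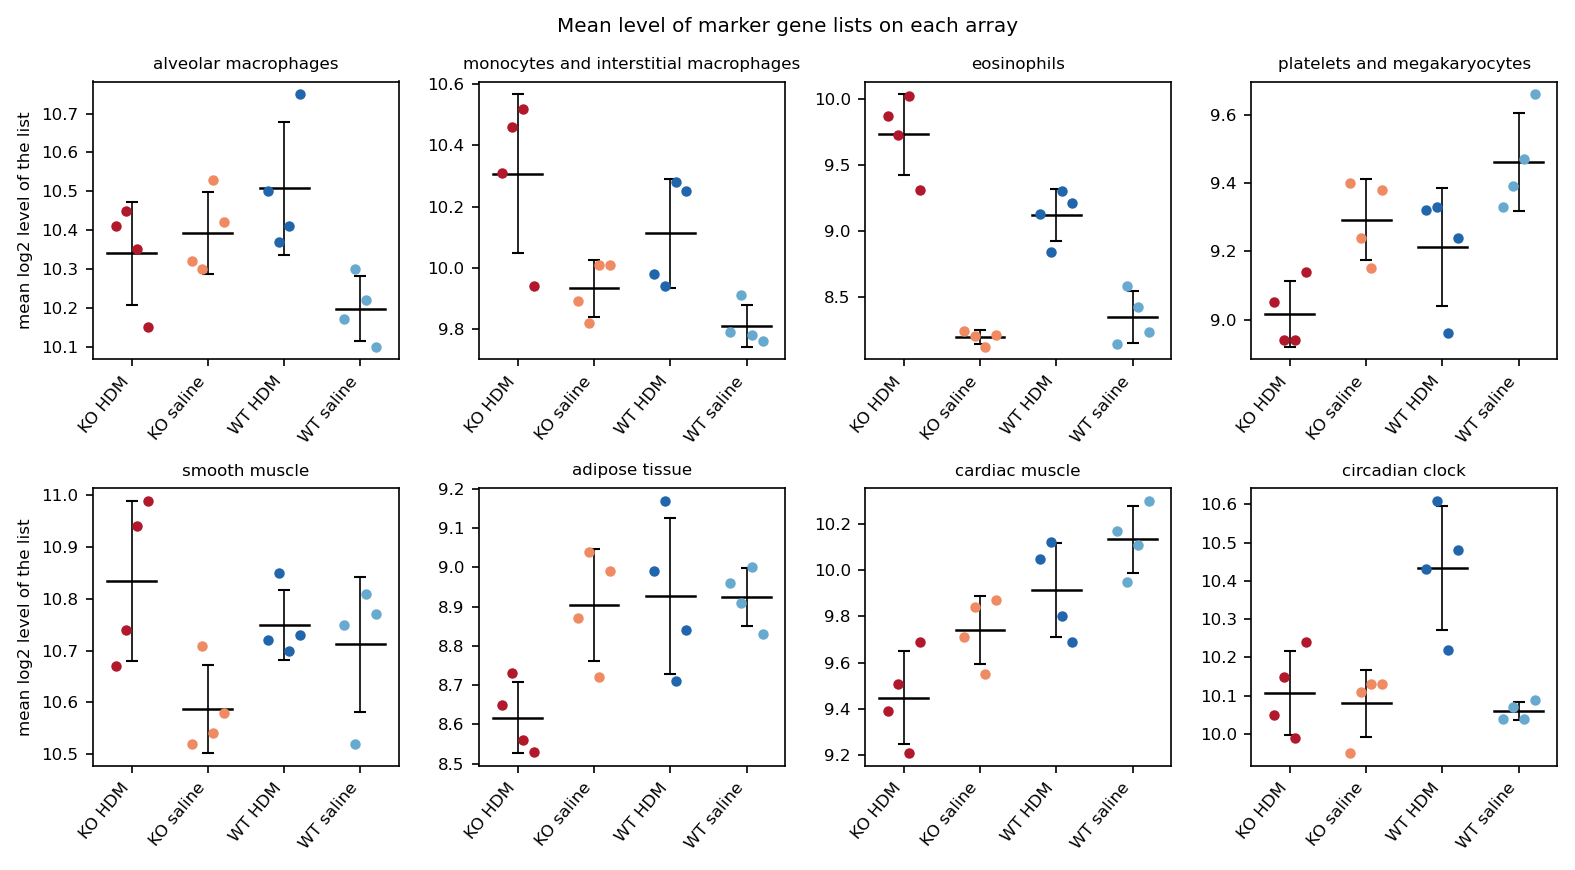
Mean log2 level of 8 marker lists on each array, with points for arrays and bars for the group mean ± SD (n = 4 per group). Platelet markers lie between 8.94 and 9.14 in KO HDM and between 9.15 and 9.40 in KO saline, and alveolar macrophage markers are higher in WT HDM (10.37 to 10.75) than in WT saline (10.10 to 10.30). The y axes of the panels differ.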

How the data were processed

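The deposited table holds log2 values, 1 per probe set and array, that the authors computed by RMA in Affymetrix Expression Console (per the submitters' processing notes) from 50 ng of total RNA labelled as biotinylated sense-strand cDNA, per the labels' protocols. RMA corrects background, normalizes across arrays and summarises probes, which compresses small differences of dim genes. The sources used here give neither versions nor the genome build, and scanner files were not used. Of 35556 probe sets, 21789 had 1 gene symbol, 1621 several and 12146 were not named. The highest-mean probe set was kept for the 999 genes with several, leaving 19938 genes.

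No transformation or filter was applied before the fit of 4 group means by limma 3.58.1 (lmFit, contrasts.fit, eBayes, R 4.3.3), which used no covariates and left 12 residual degrees of freedom. The 5 contrasts set HDM against saline in KO and in WT, KO against WT under HDM and under saline, and the interaction. Tests were two-sided, with Benjamini-Hochberg adjustment over all genes and a threshold of 0.05. The fit was tested on simulated data. SE is limma's, intervals are 95%, SD is between arrays of a group, and the number of arrays limits the precision. The group means in the HDM comparisons of KO and WT share no array, but both use the estimate of spread from all 16 arrays.

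The members, 7 pathway lists and 17 marker lists (153 of 167 marker genes measured) were chosen with earlier results of these data known. All members were named. So were up to 4 passing genes per pathway list and comparison, not always those with the largest changes. Up to 3 per marker list were named, as were neighbours of Apoe and, for apolipoproteins alone, of Apoa1 in the GRCm38.p6 RefSeq gene order. Which of these list genes are described was decided with their values known. Alternatives were quantile normalization, equal array medians, expression filters (genes above the 25th or the 50th percentile of mean level), robust estimation with a variance trend, weights per array, separate fits for each pair of groups, averaging of a gene's probe sets, a block for the replicate number, and leaving out each array, or WT saline 2 and 3 together.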

Additional observations from a re-analysis of the deposited data

Results flagged for a closer look

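In 3 of 40 sets of a gene and a group, 1 array lay farther from its group than Dixon's 95% limit allows, and chance gives about 1 in 20. Thbs1 was 12.72 on KO HDM 3, against 12.35 to 12.38 on the other 3 KO HDM arrays. Its rise with HDM in KO and its excess over WT under HDM passed without that array as with it. Plau was 8.25 on KO saline 3, against 8.36 to 8.38 on the other KO saline arrays, and its rise in KO passed without that array. Dab1 was 8.14 on WT saline 1, against 8.03 to 8.04 on the others, and it passed in no comparison with or without it.

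The HDM change of Thbs1 was larger in KO than in WT by 0.68 (adjusted p = 0.0232, limma), with all 4 KO HDM arrays above all 4 KO saline arrays and the WT groups overlapping. The other 9 genes gave no such call.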

How the results depend on the processing

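Of 925 values of 50 changes of the 10 genes under alternatives, 898 kept their side of the threshold, 18 no longer passed, 9 newly passed, and 0 changed sign while called in the main fit. The filter at the 25th percentile kept 9 of the 10 genes and that at the 50th kept 6, so that 1 gene passed with HDM in KO, Plau being left out. With array weights 2 passed the interaction, Lpl being added. Without both WT saline 2 and 3, 1 gene passed with HDM in WT (Lpl) and 0 the interaction. Leaving out each array gave 2 to 2 genes with HDM in KO, 1 to 3 in WT, 1 to 3 between genotypes under HDM, 0 to 0 under saline and 0 to 3 for the interaction. Replicate numbers showed no clear pairing of the samples. Deviations of same-numbered arrays correlated at -0.28 to 0.33, and 3 of 16 pairs exceeded 0.1. In 5 of the 16 pairs the first group's array correlated best with its own number among the 4 arrays of the second group. The 16 pairs are not independent, since the arrays of every group enter 2 comparisons. KO HDM arrays serve as first group in both of theirs, and WT saline arrays as second group only. With the replicate block 2 genes passed in KO, 2 in WT, 1 under HDM, 0 under saline and 1 the interaction, the call of Apoe in WT ending (adjusted p = 0.0558). In a fit of only the groups compared it ended too (adjusted p = 0.0758).

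Counts over all genes were 1763 in KO, 3505 in WT, 2327 under HDM, 46 under saline and 160 for the interaction. The 50th percentile filter, with fewer genes tested, gave 2289 in WT and 19 under saline. Array weights gave 2938 in KO, 110 under saline and 680 for the interaction, and fits of only the groups compared gave 390 under HDM and 98 under saline. The block gave 258 for the interaction. Without both WT saline 2 and 3, with fewer arrays, 1057 passed in WT, 10 under saline and 12 the interaction. Leaving out 1 array gave 1034 to 2673 in KO, 1960 to 3611 in WT, 968 to 3831 under HDM, 14 to 55 under saline and 41 to 1019 for the interaction. Of genes that passed with HDM in WT 44.7% were higher, 56.3% after a shift to equal medians, 61.2% under the 50th percentile filter, and 61.1% without both WT saline 2 and 3. Of calls of pathway genes, 10 of 24 in KO, 11 of 32 in WT, 3 of 15 under HDM and 1 of 1 for the interaction held under every alternative that measured them, and 0 reversed. Where no cause is given, the cause was not tested.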
